A study of Mus musculus with 2 samples.

Results

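Adipose progenitors with high transcript levels of Ptx3, Il6, Cxcl1 and Adm were examined in the stromal vascular fraction of mouse epididymal fat, the cells that remain when mature adipocytes are removed from digested tissue. The cells were chosen by their measured transcripts. A barcode needed at least 1500 UMIs (unique transcript molecules), 500 or more genes and a mitochondrial share of 15% or less. It also needed Col1a1, Col3a1 and Dcn summed to at least 30 UMIs per 10000 of the barcode (CP10k), at least 1 Pdgfra UMI, and less than 10 CP10k of the interstitial progenitor genes Pi16, Cd55, Sbsn and Dpp4. Barcodes with 15 CP10k or more of C1qa, C1qb and C1qc, or with more than 1 UMI of Msln and Upk3b, were left out. The cells that met these conditions are called committed progenitors here, and those with Ptx3, Il6, Cxcl1 and Adm at 15 CP10k or more are called inflamed progenitors. There were 2079 inflamed progenitors among 26186 barcodes, 1852 in the knockout library and 227 in the wild-type library. Anything that these 4 genes decide is therefore a description and not a finding.

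Both libraries came from mice fed a high-fat diet for 10 weeks. The knockout is a conditional knockout of Camk2d, a calcium/calmodulin-dependent kinase, in myeloid cells, and the other library is wild type. The labels used here name neither the Cre driver nor the deleted exons, and they do not say how many mice went into a library. With 1 library per genotype, genotype cannot be told apart from any other difference between the libraries, and no difference between them was tested. A description field of both samples names embryonic hindlimb while every other field names adipose tissue.

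Progenitors that carry the PDGF receptor alpha are the stromal cells from which new fat cells form. An interstitial population marked by Pi16 and Dpp4 lies upstream, and committed progenitors lie closer to the adipocyte. When exposed to signals such as interleukin 1, tumour necrosis factor or bacterial products, such stromal cells switch on NF-kB and secrete cytokines and chemokines. Ptx3 encodes the soluble pattern receptor pentraxin 3, Il6 the cytokine interleukin 6, Cxcl1 a chemokine that draws neutrophils, and Adm the vasoactive peptide adrenomedullin.

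The libraries differed in depth and in the transcripts of other cells. The knockout library held 10631 barcodes with a median of 7385 UMIs and the wild-type library 15555 with a median of 3094, and 8032 and 13085 passed the depth, gene and mitochondrial limits. Inflamed progenitors had medians of 11003.5 and 7964 UMIs and of 1.91% and 2.40% mitochondrial UMIs. Knockout cells together held 20786107 UMIs and wild-type cells 1838019, so wild-type values are the less precise. The libraries shared 48 barcodes, and 0 barcodes were inflamed progenitors in both. Intervals are at 95% and reflect the number of molecules or cells counted; variation between mice is not in them.

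The label was compared with progenitor genes that the rule did not use. The rule asked for at least 30 CP10k of Col1a1, Col3a1 and Dcn, and lymphocytes were chosen with under 5 CP10k of them. A higher level of stromal genes than in lymphocytes was therefore partly set by the choice of cells and is a description. Cd34, a progenitor surface protein, stood at 268 CPM (UMIs per 1000000 UMIs of the class) in knockout and 392 CPM in wild-type inflamed progenitors, against 7.30 and 24.7 CPM in lymphocytes. Lum, which encodes the collagen-binding proteoglycan lumican, stood at 804 and 1308 CPM against 14.4 and 68.1 CPM in lymphocytes. Both are transcripts of stromal cells, and committed progenitors below the cut held them at 273 and 412 CPM for Cd34 and 899.9 and 1654 CPM for Lum. Of the mature adipocyte list, Adipoq, Lep and Retn were at 0 in wild-type inflamed progenitors, and the list of 6 genes summed to 16.2 CPM in knockout and 9.25 CPM in wild-type cells. Summed endothelial markers (7 genes) stood at 15.8 and 10.3 CPM, mural markers (7 genes) at 73.5 and 87.6 CPM, and Schwann markers (4 genes) at 1.40 and 2.72 CPM. Neutrophil markers (6 genes) stood at 8.03 and 15.2 CPM, with the receptor Cxcr2 at 0 in both libraries. The sperm and epididymis list (5 genes) stood at 1.68 CPM in the knockout and was at 0 throughout in the wild type.

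Transcripts of macrophages and red cells were present in nearly all inflamed progenitors. The macrophage list of 10 genes summed to 527 CPM in knockout and 941 CPM in wild-type cells, with none of its genes at 0, and at least 1 of its UMIs was in 93.8% and 98.2% of cells. Erythroid genes (5 genes) summed to 2986 and 4347 CPM, against 4534 and 4637 CPM in lymphocytes. Both lists were higher in progenitors below the cut, at 911 and 1689 CPM for macrophage genes and at 4089.5 and 7061 CPM for erythroid genes. T and natural killer markers (8 genes) summed to 69.7 and 119 CPM, B cell markers (5 genes) to 82.7 and 44.1 CPM, mast cell markers (5 genes) to 15.6 and 65.8 CPM, and mesothelial genes outside the rule (6 genes) to 127 and 111 CPM. The part of such transcripts in the genotype differences below was not tested, except that for some genes the values in cells with no UMI of 6 macrophage or leukocyte transcripts are given beside the result.

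Inflamed progenitors made up 55.3% of the committed progenitors in the knockout library (1852 of 3346, 53.6 to 57.0) and 11.4% in the wild type (227 of 1994, 10.0 to 12.9). Of all barcodes that passed, they were 23.1% and 1.73%. Because knockout cells were deeper, every barcode was also thinned to 1500 UMIs before the rule was applied. The shares were then 49.9% (925 of 1854, 47.6 to 52.2) and 10.1% (110 of 1084, 8.41 to 12.1). Within bins of depth the knockout share was also the higher in each. It was 38.5% against 5.21% at 1500 to 4000 UMIs, 42.2% against 10.4% at 4000 to 8000, 58.6% against 16.5% at 8000 to 16000, and 66.1% against 29.0% (9 of 31 cells) at 16000 or more. In both libraries deeper cells passed the cut more often. Among committed progenitors without a UMI of C1qa, C1qb, C1qc, Ptprc, Tyrobp or Fcer1g, the shares were 55.1% (429 of 778) and 19.1% (13 of 68, 10.6 to 30.5).

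The 4-gene level was spread over a continuous range with no gap at the cut. Its median over committed progenitors was 18.4 CP10k in the knockout and 2.88 CP10k in the wild type. No 4-gene UMI was present in 157 knockout cells (4.69%) and in 589 wild-type cells (29.5%). Just outside the threshold, at 10 to 15 CP10k, lay 346 knockout and 140 wild-type cells, and just inside it, at 15 to 20 CP10k, lay 261 and 78. At 30 CP10k or more were 32.8% and 3.21% of committed progenitors, and at 60 CP10k or more were 10.3% (346 cells) and 0.150% (3 cells). Among the inflamed progenitors themselves the median level was 34.9 CP10k in the knockout (quartiles 23.8 and 53.0, highest 226) and 22.7 CP10k in the wild type (quartiles 18.7 and 31.4, highest 65.2).

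**Figure D1:**
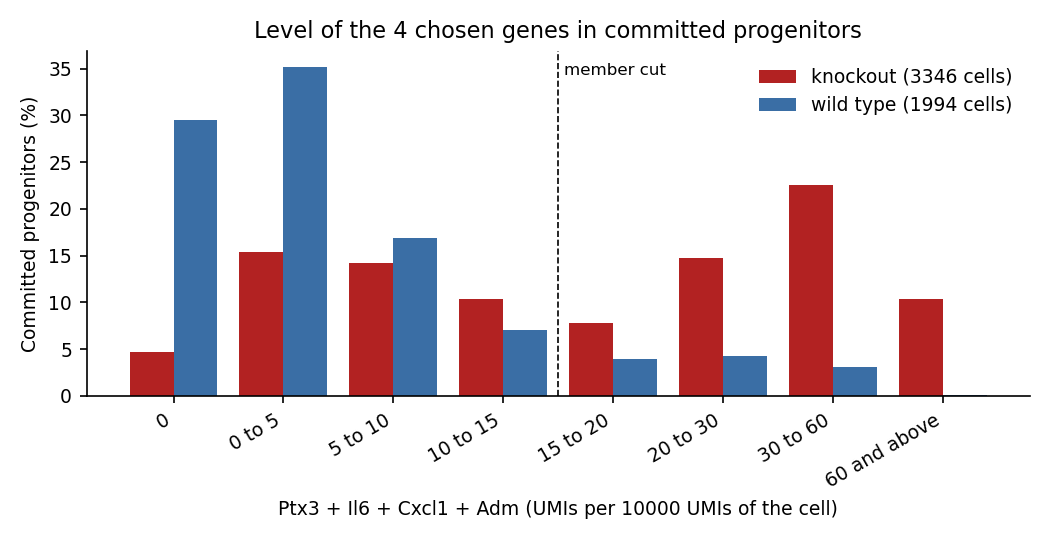
Share of committed progenitors (percent, vertical axis) in 8 bands of the summed level of Ptx3, Il6, Cxcl1 and Adm (UMIs per 10000 UMIs of the cell, horizontal axis), with knockout in red and wild type in blue. The bands differ in width, so bar heights cannot be read as the most common level. The wild-type library has its largest share in the band of 0 to 5. The knockout library has it in the wider band of 30 to 60. No gap lies at the dashed line that marks the cut.

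Interstitial progenitors, kept apart by Pi16, Cd55, Sbsn and Dpp4, showed a similar contrast between the libraries. At the same 4-gene level, 48.4% of them passed in the knockout (260 of 537, 44.1 to 52.7) and 5.30% in the wild type (49 of 925, 3.94 to 6.94). In lymphocytes, which should lack these transcripts, 0 of 1209 knockout cells and 0 of 279 wild-type cells passed, which allows shares of up to 0.248% and 1.08%.

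Cxcl1 carried most of the 4-gene signal. It supplied 61.2% of the 4-gene UMIs in knockout and 62.2% in wild-type inflamed progenitors, and it was the leading gene of the 4 in 70.6% and 66.1% of cells. Without Cxcl1, 43.5% of the knockout (805 cells) and 27.8% of the wild-type inflamed progenitors (63 cells) would still have passed. Ptx3 supplied 18.4% and 16.8% of the UMIs, Il6 11.0% and 12.4%, and Adm 9.40% and 8.65%. All 4 transcripts were seen together in 572 knockout cells (30.9%) and 31 wild-type cells (13.7%), and only 1 of them in 108 (5.83%) and 35 (15.4%). Adm by itself reached the cut in 128 knockout and 7 wild-type cells. Without Adm, 1669 knockout (90.1%) and 196 wild-type inflamed progenitors (86.3%) would still have passed.

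The levels of the 4 genes chose the cells and are given as a description. Cxcl1 stood at 2558 CPM in knockout inflamed progenitors (2536 to 2579.8) and 1610.4 CPM in wild type (1553 to 1669.5), against 299 and 180.3 CPM in committed progenitors below the cut. Ptx3 stood at 768 CPM (756 to 779.97) and 434 CPM (405 to 465), against 59.9 and 41.9 CPM. Il6 stood at 459.7 CPM (451 to 469) and 322 CPM (297 to 349), against 75.5 and 46.4 CPM. Adm stood at 393 CPM (384 to 401) and 224 CPM (203 to 247), against 192 and 80.1 CPM. Thus Ptx3 separated the groups most and Adm least, and each gene was higher in the knockout library both above and below the cut. Among cells at 15 to 30 CP10k the log2 ratios of knockout over wild type became 0.037 for Cxcl1, 0.011 for Ptx3 and 0.088 for Il6. Among cells with no macrophage transcript the ratio of Adm turned to -0.28.

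At full depth, detection did not follow the order of the levels within a library, since Ptx3 was seen in fewer cells than Il6. Cxcl1 had at least 1 UMI in 97.4% of knockout and 92.5% of wild-type inflamed progenitors, Il6 in 67.2% and 63.4%, Ptx3 in 60.3% and 48.9%, and Adm in 70.4% and 43.6%. After thinning to 1500 UMIs the shares were 86.5% and 77.5% for Cxcl1, 34.9% and 31.3% for Il6, 38.7% and 29.1% for Ptx3, and 31.3% and 19.8% for Adm. Ptx3 was then seen in more cells than Il6 in the knockout and in fewer in the wild type. In lymphocytes, with median depths of 5720 and 7127 UMIs, Cxcl1 was seen in 17.6% and 23.7%, Il6 in 5.87% and 4.66%, Ptx3 in 4.88% and 3.23%, and Adm in 3.39% and 25.4%. After thinning, the lymphocyte shares were 4.63% and 5.02% for Cxcl1 and 0.993% and 5.38% for Adm. Adm was therefore the transcript least apart from lymphocytes in the wild-type library, where it stood at 73.2 CPM (62.2 to 85.6) in lymphocytes and 80.1 CPM in progenitors below the cut.

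**Figure D2:**
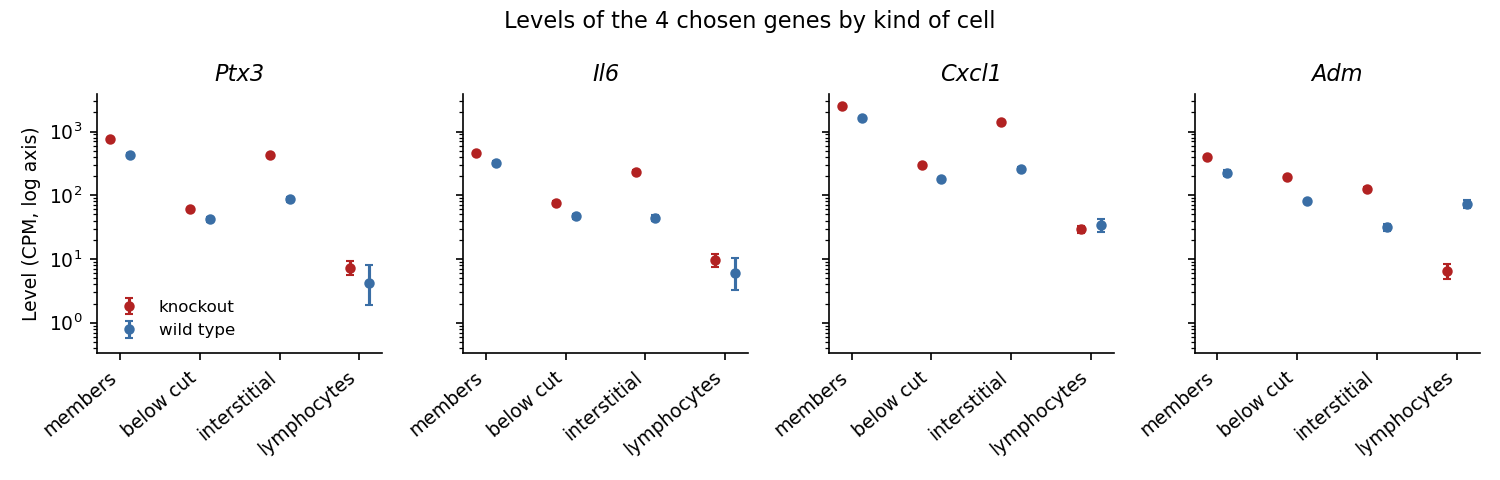
Level of each of the 4 chosen genes (CPM, log axis) in inflamed progenitors (members), committed progenitors below the cut, interstitial progenitors and lymphocytes, with knockout in red and wild type in blue and 95% Poisson intervals for counting error as bars. Wild-type Adm in lymphocytes, at 73.2 CPM, lies near its 80.1 CPM in wild-type progenitors below the cut.

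The 250 bases before the RefSeq start of each of the 4 genes are shown because these genes define the cells and 3 transcription factor families of inflammation have known short motifs. The genes lie on the plus strand of mm10: Ptx3 (ENSMUSG00000027832) at chr3:66219910-66225805, Il6 (ENSMUSG00000025746) at chr5:30013114-30019981, Cxcl1 (ENSMUSG00000029380) at chr5:90891241-90893115 and Adm (ENSMUSG00000030790) at chr7:110627661-110629820. The sequences are from RefSeq on GRCm38.p6, read 5′ to 3′ on the plus strand, at chr3:66219637-66219886 for Ptx3, chr5:30012864-30013113 for Il6, chr5:90890995-90891244 for Cxcl1 and chr7:110627407-110627656 for Adm. The RefSeq starts differ by some bases from the gene starts listed above for Ptx3, Cxcl1 and Adm, and distances are counted from the RefSeq start. Capitals mark matches to the NF-kB consensus, the AP-1 element TGANTCA or the C/EBP element TTGCNNAA on either strand.
Ptx3: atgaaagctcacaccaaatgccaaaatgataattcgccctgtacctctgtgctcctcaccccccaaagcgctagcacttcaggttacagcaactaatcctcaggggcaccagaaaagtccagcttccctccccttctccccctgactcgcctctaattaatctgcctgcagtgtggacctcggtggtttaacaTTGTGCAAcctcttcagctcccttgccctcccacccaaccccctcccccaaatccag
Il6: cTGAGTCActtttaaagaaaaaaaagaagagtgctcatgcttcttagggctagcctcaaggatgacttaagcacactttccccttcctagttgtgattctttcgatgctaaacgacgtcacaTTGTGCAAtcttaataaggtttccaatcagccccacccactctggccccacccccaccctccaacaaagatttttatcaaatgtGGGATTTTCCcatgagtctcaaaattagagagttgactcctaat
Cxcl1: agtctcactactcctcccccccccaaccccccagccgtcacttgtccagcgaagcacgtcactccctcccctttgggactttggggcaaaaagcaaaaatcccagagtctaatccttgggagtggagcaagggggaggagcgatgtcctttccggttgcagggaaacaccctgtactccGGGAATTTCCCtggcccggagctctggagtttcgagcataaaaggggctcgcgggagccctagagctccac
Adm: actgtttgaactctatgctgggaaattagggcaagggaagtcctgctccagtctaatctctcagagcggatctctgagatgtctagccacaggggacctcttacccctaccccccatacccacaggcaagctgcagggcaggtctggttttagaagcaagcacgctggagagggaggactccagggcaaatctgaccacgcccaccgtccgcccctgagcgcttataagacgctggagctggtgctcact
Il6 held a match to each of the 3 motifs: AP-1 at 249 to 243, C/EBP at 128 to 121 (minus strand) and NF-kB at 44 to 35 bases before the start. Cxcl1 held NF-kB matches on both strands that overlap, at 71 to 62 and 70 to 61 bases. Ptx3 held a C/EBP match at 57 to 50 bases on the minus strand, and Adm held no match in this window. Among 27025 promoters of this length in the table used, 3.75% held the NF-kB consensus, 6.87% the AP-1 element and 9.55% the C/EBP element. A match describes the letters and is not evidence of binding.

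Inflamed progenitors were then set against committed progenitors below the cut within each library, as a description, since the rule used this contrast. In the knockout library 30 of 5480 genes were at least 2-fold higher in inflamed progenitors (0.547%) and 13 at least 2-fold lower (0.237%). In the wild type 52 of 5666 genes were 2-fold higher (0.918%) and 23 lower (0.406%). At 1.5-fold the shares were 1.59% higher and 1.35% lower in the knockout, and 3.04% higher and 2.93% lower in the wild type. Of the 5251 genes that entered in both libraries, 23 were 2-fold higher in both, which is 82.1% of the 28 in the knockout and 48.9% of the 47 in the wild type. The 4 chosen genes, which the cut itself selects, are in each of these counts. Those 2-fold lower in both numbered 4, which is 40% of 10 in the knockout and 22.2% of 18 in the wild type. Apart from the 4 chosen genes, the higher genes were Adamts4, Ccl2, Ccl7, Egr3, Has1, Has2, Hp, Ifrd1, Itpkc, Nfkbia, Noct, Pakap, Ptgs2, Rnd1, Thbd, Thbs1, Tnfaip6 and the unnamed transcripts G530011O06Rik and Gm12840. Of these 19, 9 had a promoter in the RefSeq table, and the NF-kB consensus was in 1 of them (Nfkbia), the AP-1 element in 1 (Tnfaip6) and the C/EBP element in 2 (G530011O06Rik and Ptgs2). Among the 4170 promoters of genes that entered in both libraries the shares were 4.77%, 4.08% and 7.48%, and 9 promoters are too few to compare with them.

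The monocyte chemokines Ccl2 and Ccl7 were among the genes with the highest ratios outside the 4 chosen genes. Ccl2 stood at 717 CPM in knockout and 687 CPM in wild-type inflamed progenitors, against 179 and 139 CPM below the cut, log2 ratios of 2.003 and 2.30. Ccl7 stood at 976 and 820.4 CPM against 293 and 160.3 CPM, log2 ratios of 1.73 and 2.36. Interstitial progenitors, taken at any 4-gene level, held Ccl2 at 833 and 207 CPM and Ccl7 at 569 and 172 CPM. Ccl11, the eosinophil chemokine eotaxin, stood at 1091 and 616 CPM against 698 and 418 CPM (0.64 and 0.56), while Cxcl12, a chemokine that stromal cells make constantly, was level (471 and 302 CPM against 488 and 298 CPM). Cxcl2 was level in the knockout (164 and 162 CPM) and lower in wild-type inflamed progenitors than below the cut (169 against 301 CPM). Of the 14 chemokines counted outside the rule, 8 entered in each library, with 5 at least 1.5-fold higher and 0 lower for the knockout, and 2 higher and 1 lower for the wild type.

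NF-kB genes were higher above the cut in both libraries. Of the 18 listed, 16 entered in the knockout, of which 9 were at least 1.5-fold higher and 0 lower (median log2 0.61, against -0.03 for all genes), and 15 in the wild type, of which 8 were higher and 1 lower (median 0.66, against 0.01). Nfkbia, the inhibitor that NF-kB itself induces, stood at 1496 and 929 CPM against 715 and 448 CPM, log2 ratios of 1.07 and 1.05. Tnfaip2 (1.08 and 0.99), Bcl3, a nuclear NF-kB cofactor (0.98 and 1.32), Nfkbiz (0.91 and 0.81) and the mitochondrial superoxide dismutase gene Sod2 (0.75 and 0.69) were also higher. Tnfaip3, an enzyme that ends NF-kB signalling, differed in the knockout (189 against 84.7 CPM, log2 1.16) more than in the wild type (86.5 against 70.8 CPM, log2 0.29). Vcam1, an adhesion molecule, was near level in both (0.03 and 0.17).

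Hyaluronan and prostaglandin genes were among the most different groups outside the chemokines. Of 8 that entered, 4 (knockout) and 5 (wild type) were 1.5-fold or more higher and 0 lower in either library, with medians of 0.70 and 1.04. Tnfaip6, which encodes TSG-6, a protein that links hyaluronan to other matrix proteins, stood at 1395 and 949.9 CPM against 628 and 403 CPM (1.15 and 1.24). Has1, a hyaluronan synthase, stood at 676 and 517 CPM against 321 and 226 CPM (1.07 and 1.20), and its relative Has2 at 30.2 and 59.3 CPM against 11.9 and 27.2 CPM (1.34 and 1.13). Ptgs2, the inducible cyclooxygenase, stood at 144 and 95.2 CPM against 65.1 and 33.5 CPM (1.14 and 1.51). Among matrix proteases, Adamts4, an aggrecan-cleaving enzyme, stood at 173 and 256 CPM against 47.2 and 65.2 CPM (1.87 and 1.97). Thbs1, the matrix protein thrombospondin 1, stood at 664 and 447 CPM against 256 and 185 CPM (1.38 and 1.27). Thbd, which encodes the anticoagulant receptor thrombomodulin, stood at 402 and 353 CPM against 191 and 147 CPM (1.07 and 1.26). Hp, the haemoglobin-binding acute phase protein haptoglobin, stood at 100.4 and 206 CPM against 46.6 and 67.2 CPM (1.11 and 1.61), with 15.9% of the wild-type UMIs in 1 cell. Interstitial progenitors, taken at any 4-gene level, held more Has1 (1363 and 651 CPM) and Ptgs2 (326 and 192 CPM) than inflamed progenitors. Tnfaip6 (1478 and 753 CPM) and Thbd (428 and 288 CPM) were higher there in the knockout only. Adamts4 (50.7 and 35.1 CPM), Thbs1 (108 and 119 CPM) and Hp (60.8 and 20.9 CPM) were lower there.

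The metallothioneins, which bind zinc, were higher in inflamed progenitors: Mt1 stood at 8847 and 6221 CPM against 5802 and 3842 CPM, and Mt2 at 2857 and 1907 CPM against 1515 and 884 CPM. Of the immediate early genes, 25 entered in the knockout, of which 8 were at least 1.5-fold higher and 0 lower, and 26 in the wild type, of which 11 were higher and 0 lower, with a median of 0.37 in each. Nr4a1, an orphan nuclear receptor (1.01 and 0.93), Myc (0.87 and 1.22), Maff (0.90 and 1.07) and Cebpb (0.75 and 0.74) were higher. Fos and Jun, which together form AP-1, were not past 1.5-fold: Fos stood at 4613 and 2867 CPM against 5980 and 3649 CPM (-0.37 and -0.35), and Jun at 3805 and 2823 CPM against 4918 and 3571 CPM (-0.37 and -0.34). Warm enzymatic digestion of tissue is known to induce immediate early genes, and its part in these levels was not tested.

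Socs3, the feedback inhibitor that IL-6 family cytokines induce, stood at 1869 and 1251 CPM against 1358 and 890.4 CPM (0.46 and 0.49). Of the 11 IL-6 and STAT3 genes that entered in each library, Socs3 among them, 1 was at least 1.5-fold higher and 0 lower. The receptor chains Il6ra (0.06 and -0.10) and Il6st (0.05 and -0.04) were level. The interleukin 1 receptor Il1r1 was level in the knockout (105 against 98.8 CPM) and higher in wild-type inflamed progenitors (139 against 86.7 CPM, log2 0.68). Adipogenic regulators and lipid genes were mostly level, with 0 of 12 past 1.5-fold in the knockout and 2 lower in the wild type (Cd36 at -0.78 and Lpin1 at -0.74), and Ebf2, a marker of the adipocyte lineage, stood at 274 and 224 CPM against 239 and 192 CPM.

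The genes lower in inflamed progenitors included stromal and leukocyte transcripts. Txnip, an inhibitor of thioredoxin and of glucose uptake, stood at 418 and 392 CPM against 1312 and 922 CPM, log2 ratios of -1.65 and -1.24. Mgp, an inhibitor of matrix calcification, stood at 645 and 1339 CPM against 1268 and 2452 CPM (-0.97 and -0.87), and Tsc22d3, a glucocorticoid target, at 53.02 and 46.2 CPM against 110.2 and 83.98 CPM (-1.06 and -0.86). Besides Txnip, the genes 2-fold lower in both libraries were Il1b, Srgn and Bcl2a1b, and they stood between 13.95 and 37.0 CPM in inflamed progenitors and higher in lymphocytes (Srgn at 785 and 695 CPM). Cd74, H2-Ab1, H2-Aa and H2-Eb1, the genes of class II antigen presentation, were lower by log2 values between -0.89 and -1.24. Class II genes were also far higher in lymphocytes (Cd74 at 2523 and 5196 CPM), and the difference was smaller among cells with no macrophage transcript. There the knockout ratios were -0.29 for Cd74, -0.13 for H2-Ab1, -0.21 for H2-Aa and 0.13 for H2-Eb1, and the wild-type ratios lay between -0.60 (H2-Ab1) and -0.19 (H2-Eb1).

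Across the bands of the 4-gene level these genes followed different courses. In the knockout, Tnfaip6 went from 169 CPM at 0 to 1884 CPM at 60 CP10k and above, Nfkbia from 233 to 1763 CPM, and Txnip from 2017 down to 180.15 CPM. Fos reached 6462 CPM (6391 to 6535) at 5 to 10 CP10k and 3111 CPM (3056 to 3167) at 60 and above. In the wild type, Fos reached 3991 CPM (3909 to 4073) at 5 to 10 and 2282 CPM (2145 to 2425) at 30 to 60, the highest band with at least 20 cells. At matched bands, Fos, Jun, Nfkbia and Mt2 stood higher in the knockout in each band from 0 to 5 through 30 to 60 CP10k, whereas Ccl2 and Has1 crossed between the libraries. The bands share the 4 genes with the rule, so the courses are descriptions.

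**Figure D3:**
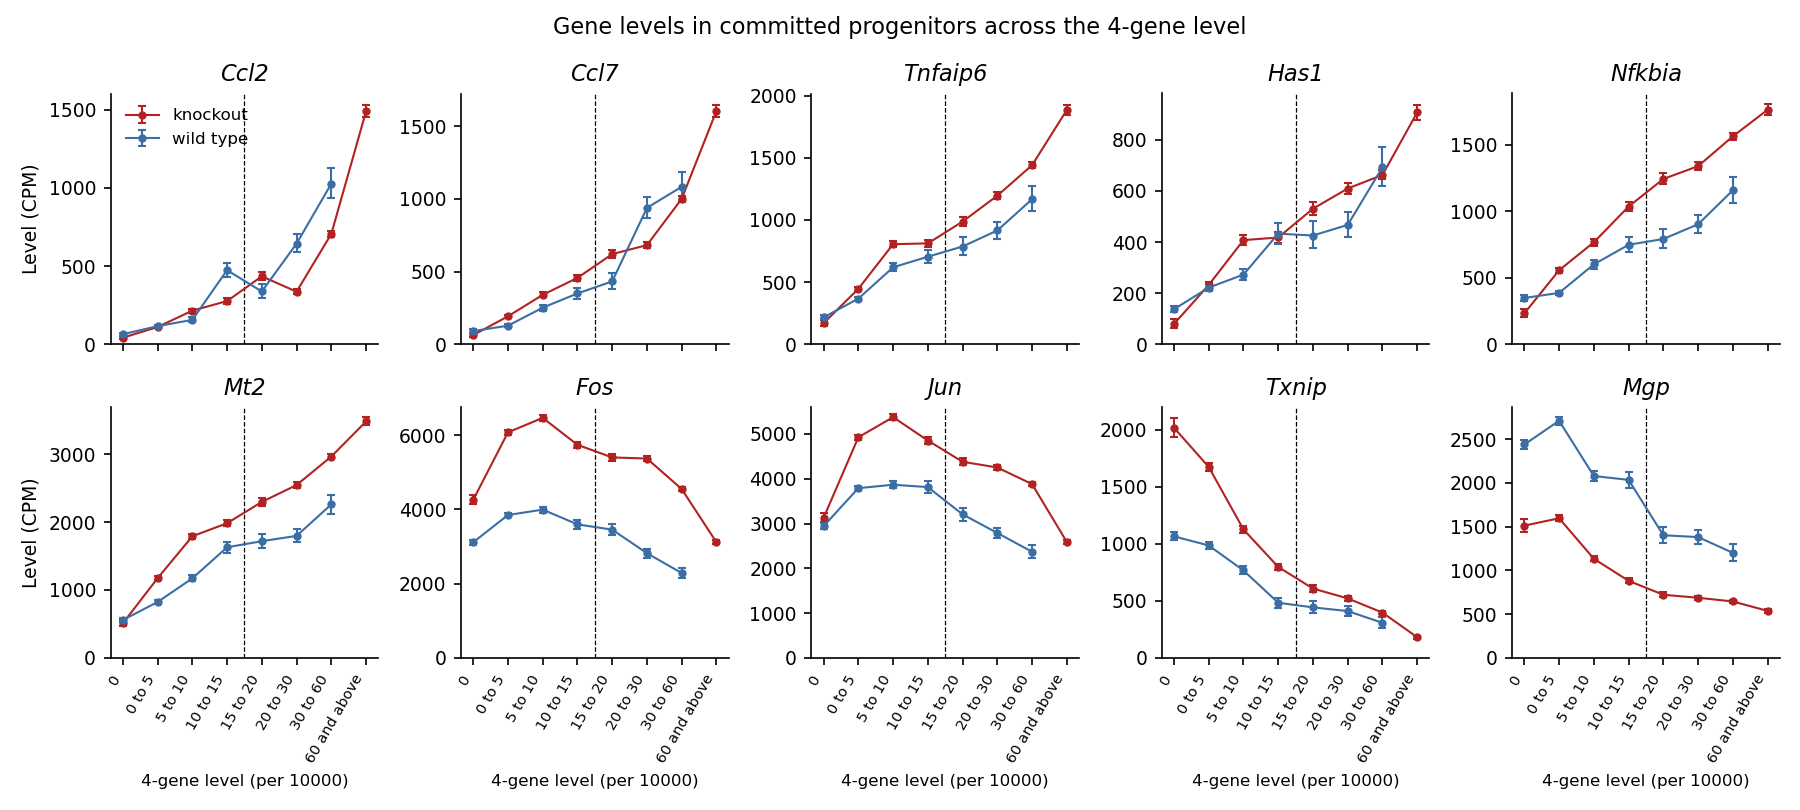
Levels (CPM, vertical axes) of 10 genes in committed progenitors across bands of the 4-gene level (UMIs per 10000, horizontal axes), knockout in red and wild type in blue, bars 95% Poisson intervals for counting error, bands under 20 cells not drawn. Tnfaip6, Nfkbia and Mt2 climb with the level, Txnip and Mgp are lowest at the high levels, and Fos and Jun peak at 5 to 10 in both libraries.

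Between the libraries, inflamed progenitors of the knockout differed from those of the wild type in genes of several groups. Of 5465 genes, 35 were 2-fold or more above the wild type (0.64%) and 77 were 2-fold or more under it (1.41%), and the median log2 ratio of all of them was -0.09. At 1.5-fold, 173 were higher (3.17%) and 418 lower (7.65%). Under TMM scaling the median shifted by 0.15 on the log2 scale and the 2-fold counts became 60 higher and 54 lower, so the balance between directions depends on the scaling. Inflamed progenitors of the knockout also had the higher 4-gene levels, so ratios are set beside those of progenitors below the cut and, where they changed, those of cells at 15 to 30 CP10k.

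Interferon-induced genes were higher in the knockout library. Of the 18 listed, 12 entered, of which 8 were at least 1.5-fold higher and 0 lower, with a median log2 ratio of 0.85, and below the cut 9 of 13 were higher with a median of 0.71. Iigp1, an interferon-induced GTPase that attacks pathogen vacuoles, stood at 152 CPM (147 to 158) in the knockout and 25.6 CPM (18.8 to 34.0) in the wild type, a log2 ratio of 2.57 (2.16 to 3.02), and at 2.11 below the cut. Irf1, the transcription factor of interferon gamma responses, stood at 349 CPM (341 to 357) and 139.8 CPM (123 to 158), a log2 ratio of 1.32 (1.14 to 1.504). Gbp2, another interferon-induced GTPase, stood at 106 and 38.6 CPM (1.45, 1.11 to 1.81), and Ifi204, a sensor of DNA, at 557 and 333 CPM (0.74). Isg15 (33.1 and 11.4 CPM, 1.54) and Ifit1 (31.4 and 8.71 CPM, 1.85) rested on 21 and 16 wild-type UMIs and turned negative, at -0.53 and -1.06, among cells with no macrophage transcript, of which the wild type had 13. Lymphocytes also held more Irf1 (77.9 and 48.5 CPM) and Iigp1 (14.8 and 2.80 CPM) in the knockout library.

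The chemokines induced by interferon gamma followed the same direction on few molecules. Cxcl9 stood at 52.3 CPM in knockout and 4.35 CPM in wild-type cells (8 UMIs), with 19.1% of the knockout UMIs in 1 cell. Cxcl10 stood at 72.8 CPM and 9.79 CPM (18 UMIs), with 72.2% of the wild-type UMIs in 1 cell, and its ratio turned to -0.082 among cells with no macrophage transcript. Ccl11 (1091 and 616 CPM, log2 0.82, 0.74 to 0.91) and Cxcl12 (471 and 302 CPM, 0.64, 0.52 to 0.77) were higher in the knockout too. Cxcl14 (17.5 and 59.8 CPM, -1.77) and Ccl8 (19.5 and 46.2 CPM, -1.24) were lower. Ccl2 was near level (717 and 687 CPM, 0.06, -0.02 to 0.14). Of the 14 chemokines, 10 entered, 4 were 1.5-fold higher and 2 lower, and the median of 0.16 became -0.26 among cells at 15 to 30 CP10k.

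Immediate early genes were higher in knockout inflamed progenitors. All 27 entered, 14 were at least 1.5-fold higher and 0 lower, and the median was 0.59, against 0.62 below the cut. Zfp36, which encodes tristetraprolin, a protein that destabilises cytokine mRNAs, stood at 3522 CPM (3497 to 3548) and 1596 CPM (1539 to 1655), a log2 ratio of 1.14 (1.09 to 1.20). Fos stood at 4613 and 2867 CPM (0.69), Fosb at 4045 and 2355 CPM (0.78), Cebpd at 2606 and 1433 CPM (0.86) and Maff at 230.15 and 119 CPM (0.96). Egr2 (-0.53), Egr3 (-0.55) and Nr4a2 (-0.51, with 21.3% of the 47 wild-type UMIs in 1 cell) lay on the other side, short of 1.5-fold. The whole list summed to 46975 CPM in knockout and 31087 CPM in wild-type cells, to 44187 and 28271 CPM below the cut, and to 8446 and 8556 CPM in lymphocytes.

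Among NF-kB genes, 5 of 16 were at least 1.5-fold higher in knockout inflamed progenitors and 0 lower, with a median of 0.32 (0.26 below the cut). Tnfaip3 stood at 189 CPM (183 to 195) and 86.5 CPM (73.6 to 101), a log2 ratio of 1.13 (0.90 to 1.37), against 0.26 (84.7 and 70.8 CPM) below the cut. Over the alternatives the ratio above the cut ran from 0.68 to 1.33. Lymphocytes held Tnfaip3 at 439.7 and 154 CPM, and the part of lymphocyte RNA was not tested. Tnfaip2 (980 and 571 CPM, 0.78), Nfkbiz (802 and 471 CPM, 0.77), Nfkbia (1496 and 929 CPM, 0.69) and Icam1 (305 and 189 CPM, 0.69) were higher by similar amounts above and below the cut. The NF-kB subunit Nfkb1 was level (122 and 122 CPM). Rnd1, a small GTPase that loosens cell adhesion, stood at 105 and 29.9 CPM (1.82, 1.43 to 2.23). Its ratio was 1.11 below the cut and 1.19 among cells at 15 to 30 CP10k. IL-6 family and STAT3 genes had 0 of 11 past 1.5-fold and a median of 0.23. Wnt5a, a signal of the noncanonical Wnt pathway, stood at 126 and 52.8 CPM (1.25, 0.96 to 1.56), and Smpd3, a neutral sphingomyelinase, at 133 and 35.4 CPM (1.91, 1.56 to 2.29). Below the cut the ratio of Wnt5a was 0.59 and that of Smpd3 1.97.

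Collagen genes were lower in the knockout, without the 2 collagens that the rule used. All 12 of the others entered, 6 were at least 1.5-fold lower and 0 higher, and the median was -0.58, close to the -0.56 below the cut. Col1a2 stood at 2658 and 4847 CPM (-0.87, -0.90 to -0.83), Col15a1, a basement membrane collagen, at 278 and 580.5 CPM (-1.06), and Col5a3 at 282 and 528 CPM (-0.91). Col14a1 was level (155 and 162 CPM). Col8a1 (17.5 and 56.04 CPM, -1.68) had 24.3% of its wild-type UMIs in 1 cell and turned to 0.65 at 30 CP10k or more. Of 14 other matrix genes that entered, 4 were lower and 0 higher, with Sparc, a collagen-binding protein, at 3293 and 6653 CPM (-1.01), and Bgn, which encodes biglycan, at 634 and 1139 CPM (-0.85). Thbs1 (0.57) and the collagen cross-linking enzyme Lox (0.51) lay on the other side. Mgp stood at 645 and 1339 CPM (-1.05, -1.12 to -0.99).

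Matrix proteases and their inhibitors split. Timp1, an inhibitor of metalloproteases, stood at 84.1 CPM (80.2 to 88.1) in the knockout and 422 CPM (393 to 453) in the wild type, a log2 ratio of -2.33 (-2.45 to -2.20), against -1.53 below the cut. A single wild-type cell held 12.8% of its UMIs, and among cells with no macrophage transcript the ratio was -0.25. Timp3, another inhibitor, lay the other way at 817 and 418 CPM (0.97, 0.86 to 1.07), and Timp2 was level (2231 and 2223 CPM). Mmp3, stromelysin 1, stood at 39.3 and 154 CPM (-1.97, -2.17 to -1.77) and turned to 1.02 at 30 CP10k or more. Mmp2, gelatinase A, stood at 469 and 713 CPM (-0.60). Of 13 in the list, 1 was 1.5-fold higher and 3 lower, where 3.17% of all genes were higher and 7.65% lower.

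Several of the genes lowest in the knockout are known from macrophages. Lgals3, which encodes galectin 3, stood at 100.02 CPM and 561 CPM (-2.49, -2.60 to -2.38), and in lymphocytes at 182 and 571 CPM. Tyrobp, a signalling adaptor of myeloid cells, stood at 44.2 and 129 CPM (-1.54), Lcp1, an actin-bundling protein of leukocytes, at 25.8 and 82.2 CPM (-1.67), and the chemokine Ccl9 at 24.01 and 79.98 CPM (-1.74). The summed macrophage list differed in the same direction, at 527 and 941 CPM, and 7 of its 8 genes that entered were at least 1.5-fold lower. Over the alternatives the ratio ran from -2.69 to -2.34 for Lgals3, -3.09 to -1.28 for Lcp1 and -2.59 to -1.58 for Ccl9. The alternatives include cells with no macrophage transcript, of which the wild type had 13. Tyrobp ran from -1.80 to -1.33 without that alternative, since its own UMIs define it. The part of macrophage RNA in these values was not tested. Others are genes of stromal or many cells: Nnmt, an enzyme of nicotinamide metabolism (38.2 and 123 CPM, -1.69), Igfbp5 (27.95 and 83.8 CPM, -1.58) and Maged2 (46.2 and 139 CPM, -1.59). Below the cut their ratios were -0.91, -2.11 and -1.18. Slco2a1, a prostaglandin transporter (24.4 and 78.3 CPM, -1.68, and -0.95 below the cut), had 18.8% of its wild-type UMIs in 1 cell. Its ratio turned to 0.82 among cells with no macrophage transcript.

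**Figure D4:**
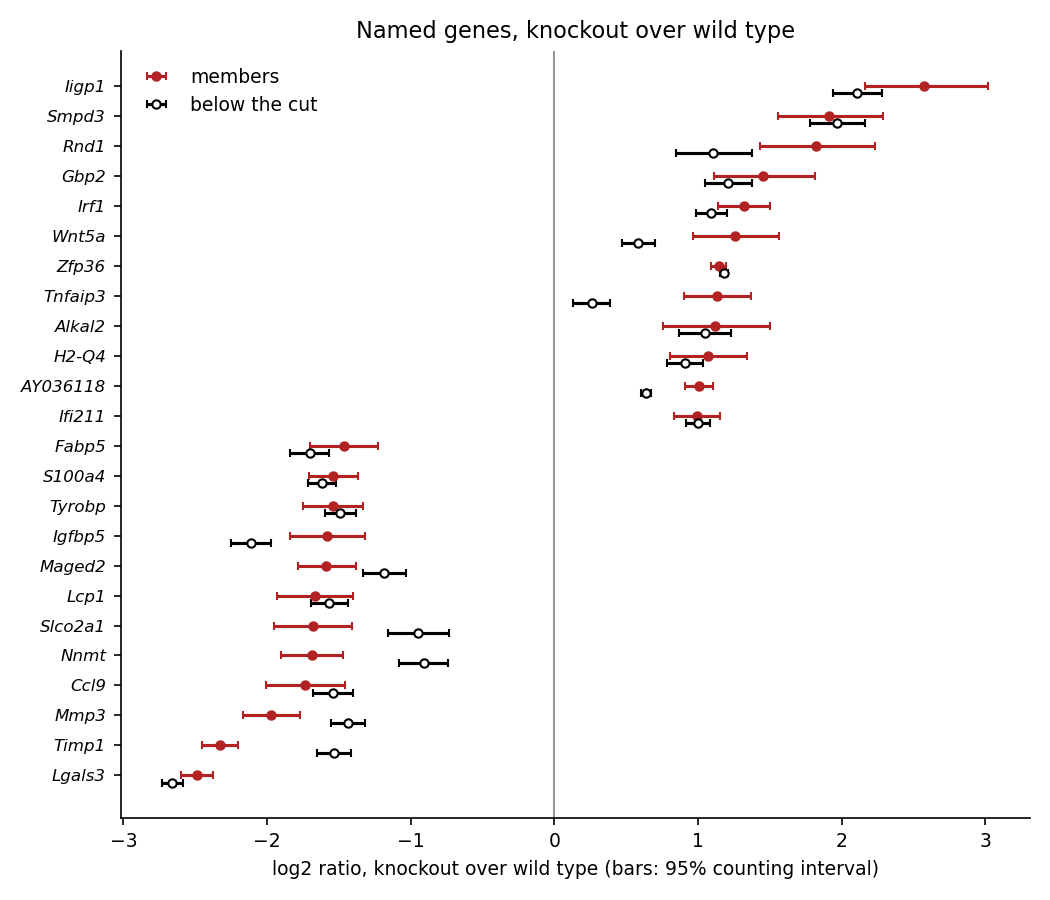
Log2 ratio of knockout over wild type (horizontal axis) for the 12 highest and 12 lowest named genes, in inflamed progenitors (members, filled red) and in committed progenitors below the cut (open black), with bars for the 95% counting interval. Tnfaip3 and Rnd1 lie further from 0 above the cut than below it, while Lgals3 and Zfp36 lie at about the same ratio in both.

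The remaining gene lists are given by their counts. Of all 5465 genes, 3.17% were at least 1.5-fold higher and 7.65% lower. Lists with only 1 or 2 genes past 1.5-fold are too short to be set apart from these shares. Of 8 glucocorticoid response genes that entered, 3 were at least 1.5-fold higher (Cebpd, Zbtb16 and Dusp1) and 0 lower, with a median of 0.18, and Cebpd and Dusp1 are also in the immediate early list. Igfbp3, which binds insulin-like growth factors, stood at 78.9 and 14.1 CPM (2.48), with 23.1% of its 26 wild-type UMIs in 1 cell, and lay opposite to Igfbp5. Adipogenic and lipid genes had 1 of 12 past 1.5-fold higher (Lpin1, 0.66) and 3 lower, among them Plin2, which coats lipid droplets (96.8 and 188 CPM, -0.96), and Fabp5 (37.4 and 103 CPM, -1.47). Fabp5 also stood at 51.8 and 97.0 CPM in lymphocytes, and its ratio was -1.70 below the cut. The part of RNA from other cells in its values was not tested. Heat shock genes had 0 of 12 past 1.5-fold with a median of -0.22, and complement genes 1 of 9 lower, with C3 at 4134 and 3713 CPM (0.16). Hypoxia and glycolysis genes had 2 of 10 lower (Pkm at -0.70 and Hilpda at -1.23). In the list of TGF-beta and YAP targets, 2 of 11 were lower, among them Tagln, of which 78.6% of the 154 wild-type UMIs were in 1 cell. Camk2d itself stood at 85.8 CPM in knockout and 93.6 CPM in wild-type inflamed progenitors, a log2 ratio of -0.12 (-0.35 to 0.11) that became 1.49 among cells with no macrophage transcript (13 wild-type cells) and was 0.027 under TMM scaling, and these stromal cells are not the myeloid cells named in the genotype. Of the 11 calcium, calmodulin and calcineurin genes that entered, 1 was at least 1.5-fold lower (Nfatc2, -0.80, with 20.8% of its 48 wild-type UMIs in 1 cell) and 0 higher.

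**Figure D5:**
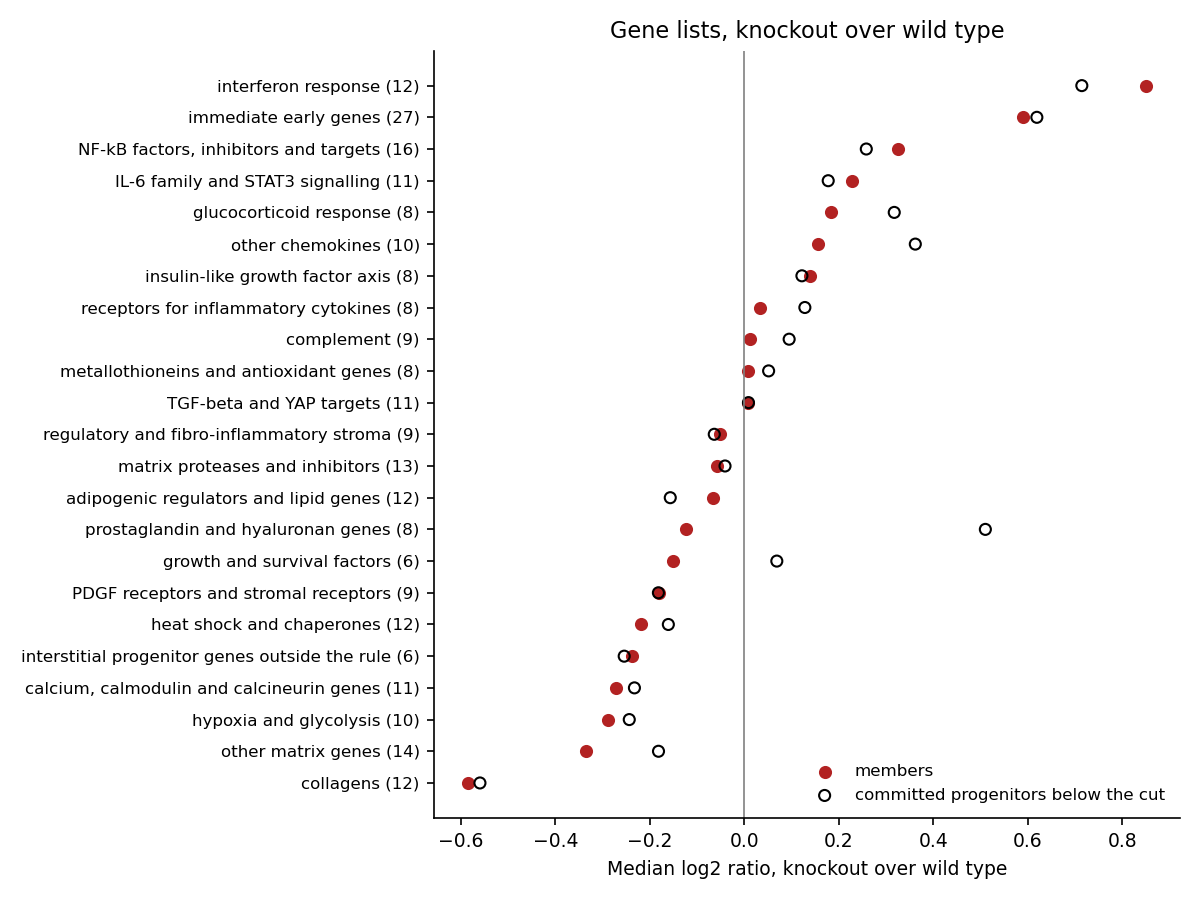
Median log2 ratio of knockout over wild type (horizontal axis) for 23 gene lists, with the number of genes that entered in brackets, in inflamed progenitors (members, filled) and in committed progenitors below the cut (open). Interferon response (0.85 and 0.71) and immediate early genes (0.59 and 0.62) lie furthest to the right and collagens (-0.58 and -0.56) furthest to the left.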

How the data were processed

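Single-cell 3′ RNA-seq libraries of the epididymal fat stromal vascular fraction, 1 per genotype, were analysed from the gene by barcode matrices the authors deposited. Their values are raw UMI counts, whole numbers with no normalization. Per the submitters' processing notes, Cell Ranger 5.0.0, Seurat 4.1.1 and build mm10 were used; parameters are not given in the sources used here. The deposited counts were used as they are.

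The rule's gene sums were taken as UMIs per 10000 UMIs of the barcode (CP10k). Lymphocytes, used for background, had 10 CP10k or more of Cd3d, Cd3e, Cd3g, Trac, Trbc2, Cd79a, Cd79b and Ms4a1, under 5 of the 3 stromal genes and under 5 of the C1q genes. For each class in each library the UMIs of its cells were added up and expressed per 1000000 UMIs of that class (CPM). A gene entered a comparison at a mean of 20 CPM and at least 30 UMIs in the higher group. A call is a size rule, 2-fold for genes and 1.5-fold for lists, not a test. All intervals are 95%: exact Poisson for levels, exact conditional for ratios and Clopper-Pearson for shares. They cover counting error only, and for a count of 0 the upper limit is 3 counts. With 1 library per genotype no genotype difference was tested, and no p-value is given. PCR duplicates are collapsed by the molecular identifiers, but UMIs of 1 cell are not independent of each other.

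The members, the comparisons and the gene lists (23 pathway lists and 12 lists of other cell types) were chosen with earlier results of these data known. Named genes are the 4 chosen genes, the 12 highest and 12 lowest ratios per comparison at 50 CPM, and for each list its most abundant gene, its extreme ratios and genes whose role is described. Genes of the rule, ribosomal, mitochondrial, haemoglobin, immunoglobulin and predicted genes were left out of the rankings; Aldoa and Ccl19, each present as more than 1 feature, were left out of list counts, as were rule genes.

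Doublets were scored with Scrublet (scanpy 1.11.5, expected rate 0.08) and not removed. Its automatic threshold called 301 knockout (3.75%) and 0 wild-type barcodes, so it did not work in the wild type; a fixed score of 0.25 marks 329 (4.10%) and 365 (2.79%) and was an alternative. For shares of cells with a UMI, each barcode was thinned to 1500 UMIs. Other alternatives were the 4-gene level, depth, mitochondrial share, macrophage transcripts, scaling (edgeR 4.0.16 TMM factors), the weight of cells and the CPM floor. The ratio procedure was tested on simulated data. The counts were independent Poisson draws, the form that the intervals assume, so clustering of UMIs within cells was not part of that test. Motifs were searched in RefSeq promoters of GRCm38.p6, the build also called mm10, and gene positions are those of GENCODE vM21.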

Additional observations from a re-analysis of the deposited data

How the results depend on the processing

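With 1 library per genotype the differences between the libraries have no replicate check, and depth limits the wild-type values most, since its 227 cells hold 1838019 UMIs. No paired analysis was possible because each genotype has 1 library. The knockout share of inflamed progenitors was above the wild-type share under every alternative run. With the 4-gene level at 10 CP10k the shares were 65.7% and 18.4%, at 30 CP10k 32.8% and 3.21%, thinned to 1500 UMIs 49.9% in the knockout, and without macrophage transcripts 19.1% in the wild type.

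The counts of genes past 2-fold moved by more than 1.5 times under these settings. Genes higher in the knockout numbered 89 at 30 CP10k, 550 without macrophage transcripts (13 wild-type cells), 55 after thinning, 60 under TMM scaling, 14 with a floor of 50 CPM and 449 with no floor. Genes lower in the knockout numbered 12 without macrophage transcripts, 37 with a floor of 50 CPM and 136 with no floor. Above against below the cut in the knockout, higher genes numbered 17 at 30 CP10k, 60 with no floor and 9 at 15 to 30 CP10k, an alternative chosen after seeing the data. Lower genes there numbered 20 at 10 CP10k, 20 at 30 CP10k, 8 without doublets, 5 after thinning, 6 under TMM scaling, 7 with a mean of per-cell CPM, 7 with a floor of 50 CPM, 310 with no floor and 5 at 15 to 30 CP10k. In the wild type, higher genes numbered 24 without macrophage transcripts. Lower genes there numbered 10 at 10 CP10k, 95 at 30 CP10k, 66 without macrophage transcripts, 41 after thinning, 57 with a mean of per-cell CPM, 9 with a floor of 50 CPM and 664 with no floor. The floor and the smaller cell sets change how many genes enter. For the other settings the cause was not tested.

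Among named and listed genes whose ratio was at least 2-fold, 9 ratios changed sign. At 30 CP10k these were Mmp3 (1.02) and Col8a1 (0.65). Without macrophage transcripts they were H2-Q4 (-0.47), Slco2a1 (0.82), Cxcl10 (-0.082), Isg15 (-0.53) and Ifit1 (-1.06) for knockout over wild type, H2-Eb1 (0.13) above against below the cut in the knockout, and Noct (-0.75) in the wild type. The cause was not tested. Over the alternatives the median for knockout over wild type ran from 0.70 to 1.19 for interferon genes, 0.56 to 0.74 for immediate early genes, 0.23 to 0.79 for NF-kB genes and -0.71 to -0.30 for collagens.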
